A study of Mus musculus with 6 samples.

Results

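SP1 sites in and around the RGS genes of mouse chromosome 1 were compared between neural progenitor cells (NPC) and embryonic stem cells (ESC), and 36 sites at 8 of the 9 listed genes were found among 9001 sites in all. A site belonged to a gene when its midpoint lay inside the gene or within 50 kb of either end, with gene positions from RefSeq on GRCm38.p6, which is mm10. Rgs20 had 8 sites, Rgs2 had 2, Rgs1 had 3, Rgs8 had 8, Rgs16 had 4, Rgs5 had 2, Rgs4 had 2 and Rgs7 had 10. Rgs18 had none and was dropped. Rgs8 and Rgs16 lie 42.7 kb apart and shared 3 sites, which count once in the 36. The genes were chosen by family and chromosome with the log2 fold changes and calls of this same comparison already known, so all counts and differences here are descriptions and none is a test.

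Accessibility was measured by ATAC-seq, in which the Tn5 transposase cuts open chromatin, in 3 libraries of the mouse ESC line R1 and 3 libraries of NPC that also carry the R1 label. The labels name no treatment, genotype or age, and do not say how the NPC were made or whether each library had its own culture. The p-values then reflect only the spread among the 6 libraries, part of which may be technical. The authors compared NPC with ESC over sites of high-confidence binding by SP1, a zinc-finger protein that recognises GC-rich DNA and activates many promoters, and the comparison asks how open those sites are in each cell type. The table covers chromosome 1, chromosome 10 and part of chromosome 11 and holds no value or depth per library, so errors are the authors' standard errors and not SDs over replicates. Around marker genes of the labelled cells, 29 of 59 sites of the 7 ESC markers fell in NPC and 12 rose. These were Tfcp2l1, Prdm14, Nr5a2, Nodal, Lefty1, Lefty2 and Dnmt3l. Of 25 sites of the 4 NPC markers, Fabp7, Pou3f3, Meis1 and Nr2e1, 13 rose and 3 fell. Of 24 sites of 4 genes listed for other lineages (Sox17, Mixl1, Fn1 and Gja1), 15 fell and 2 rose. Not every marker followed its list. Nodal had 4 rises and 3 falls, Lefty2 had 4 of each, Mixl1 had 1 of each, and Nr2e1 had no rise and 1 fall. Among all 9001 sites 22.8% rose and 32.6% fell, so the 20.3% of rises at ESC markers is near that share.

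RGS proteins (regulators of G protein signalling) speed up the hydrolysis of GTP by the alpha subunits of heterotrimeric G proteins and so shorten the signal from G protein-coupled receptors. Rgs1, Rgs2, Rgs4, Rgs5, Rgs8, Rgs16 and Rgs18 encode small proteins of the R4 subfamily, made of little more than the RGS domain. Rgs7 belongs to the R7 subfamily, whose members pair with the G protein subunit Gnb5, and Rgs20 to the RZ subfamily. Several of these genes are known for expression in brain, Rgs4, Rgs7 and Rgs8 among them, while Rgs1 and Rgs18 are best known from blood cells and Rgs5 from pericytes.

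Sites of SP1 are often near gene starts, so the bases before the starts of the R4 genes are shown here to set beside the values. Each line gives the 250 bases before the transcript start in the RefSeq window of GRCm38.p6, 5′ to 3′ on the gene's own strand, and capitals mark the GC box, searched as GGGCGG on both strands (CCGCCC when read on the printed strand). The windows are chr1:144004150-144004399 on the minus strand for Rgs2, chr1:153740103-153740352 on the plus strand for Rgs16, chr1:153665024-153665273 on the plus strand for an internal start of Rgs8, chr1:169747643-169747892 on the minus strand for Rgs4 and chr1:169655251-169655500 on the plus strand for Rgs5. The first 4 overlap a listed SP1 site and the last does not.
Rgs2: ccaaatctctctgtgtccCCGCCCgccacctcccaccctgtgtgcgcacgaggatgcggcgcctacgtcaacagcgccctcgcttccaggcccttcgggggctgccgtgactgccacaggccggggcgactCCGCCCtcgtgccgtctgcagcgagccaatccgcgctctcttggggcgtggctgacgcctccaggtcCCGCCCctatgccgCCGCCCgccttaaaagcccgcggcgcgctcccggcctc
Rgs16: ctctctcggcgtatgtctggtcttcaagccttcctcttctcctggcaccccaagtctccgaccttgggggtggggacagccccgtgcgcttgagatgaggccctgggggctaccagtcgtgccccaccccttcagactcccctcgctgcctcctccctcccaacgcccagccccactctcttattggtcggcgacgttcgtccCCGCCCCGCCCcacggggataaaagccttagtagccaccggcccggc
Rgs8 internal: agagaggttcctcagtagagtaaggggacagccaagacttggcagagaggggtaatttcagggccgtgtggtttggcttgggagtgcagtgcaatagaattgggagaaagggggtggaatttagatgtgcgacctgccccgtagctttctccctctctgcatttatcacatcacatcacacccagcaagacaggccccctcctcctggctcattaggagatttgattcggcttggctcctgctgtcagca
Rgs4: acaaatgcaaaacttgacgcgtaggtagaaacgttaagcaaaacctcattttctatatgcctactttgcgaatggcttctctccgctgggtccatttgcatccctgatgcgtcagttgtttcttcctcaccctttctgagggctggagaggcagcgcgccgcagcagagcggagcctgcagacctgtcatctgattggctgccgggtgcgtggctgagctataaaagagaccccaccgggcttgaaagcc
Rgs5: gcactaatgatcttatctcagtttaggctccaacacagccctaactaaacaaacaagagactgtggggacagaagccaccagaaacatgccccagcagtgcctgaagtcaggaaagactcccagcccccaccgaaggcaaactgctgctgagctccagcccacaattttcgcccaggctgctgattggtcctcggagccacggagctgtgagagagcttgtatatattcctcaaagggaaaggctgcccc

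The Rgs2 window held 4 GC boxes, which begin 232, 119, 52 and 38 bases before the start, and all of them lie inside the listed site. Rgs16 held 2, beginning 47 and 42 bases before the start and sharing a base, again inside the listed site. Rgs4, Rgs5, Rgs7 and the 3 RefSeq starts of Rgs8 held none. Of 32851 such windows in the mouse table, 32.7% held at least 1 GC box, 16.7% held at least 2 and 4.09% held at least 4. The related letters GGGTGG, a GT box, occurred once at Rgs2, once at the internal Rgs8 start (139 bases before it), and 2 times at each of Rgs16 and Rgs7, against 28.1% of windows with at least 1. CpG dinucleotides numbered 30 at Rgs2, 22 at Rgs7, 17 at Rgs16, 13 at Rgs4, 4 at Rgs5 and 4 at the internal Rgs8 start, with a median of 6 over all windows. A match in letters is not a measured binding site. No start windows of Rgs1, Rgs18 and Rgs20 were available here.

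Across the family, rises outnumbered falls. At an adjusted p below 0.05 per the authors' deposited table, 14 of the 36 sites rose in NPC, 4 fell and 18 were not called. The count of falls depends on the window: within 100 kb of the genes 18 of 50 sites rose and 12 fell. Among all 9001 sites 55.4% were called, 22.8% as rises and 32.6% as falls, while of the RGS sites 50% were called, 38.9% as rises and 11.1% as falls. The share called is thus near the background, and the balance of directions leaned to rises where that of all sites leaned to falls. With fold changes centred on their overall median and p-values recomputed, 23.1% of all sites rose and 22.8% fell. Centring places equal numbers of sites above and below 0, so that balance is close to set in advance. In the centred setting 15 RGS sites rose and 3 fell. The median log2 fold change (NPC over ESC) was 0.41 over the RGS sites and -0.29 over all listed sites. The RGS median was 0.12 when each gene counted once and 0.89 with windows of 20 kb. The rises had a median of 3.15 and ran from 0.93 to 5.28 on the log2 scale per the authors' deposited table, and the falls had a median of -3.19, against medians of 3.03 and -3.24 for the called rises and falls of all sites. The members were unlike each other: 6 rises belong to the Rgs8/Rgs16 group, 3 each to Rgs20 and Rgs7, 2 to the Rgs1/Rgs2/Rgs18 group and none to the Rgs4/Rgs5 group.

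**Figure D1:**
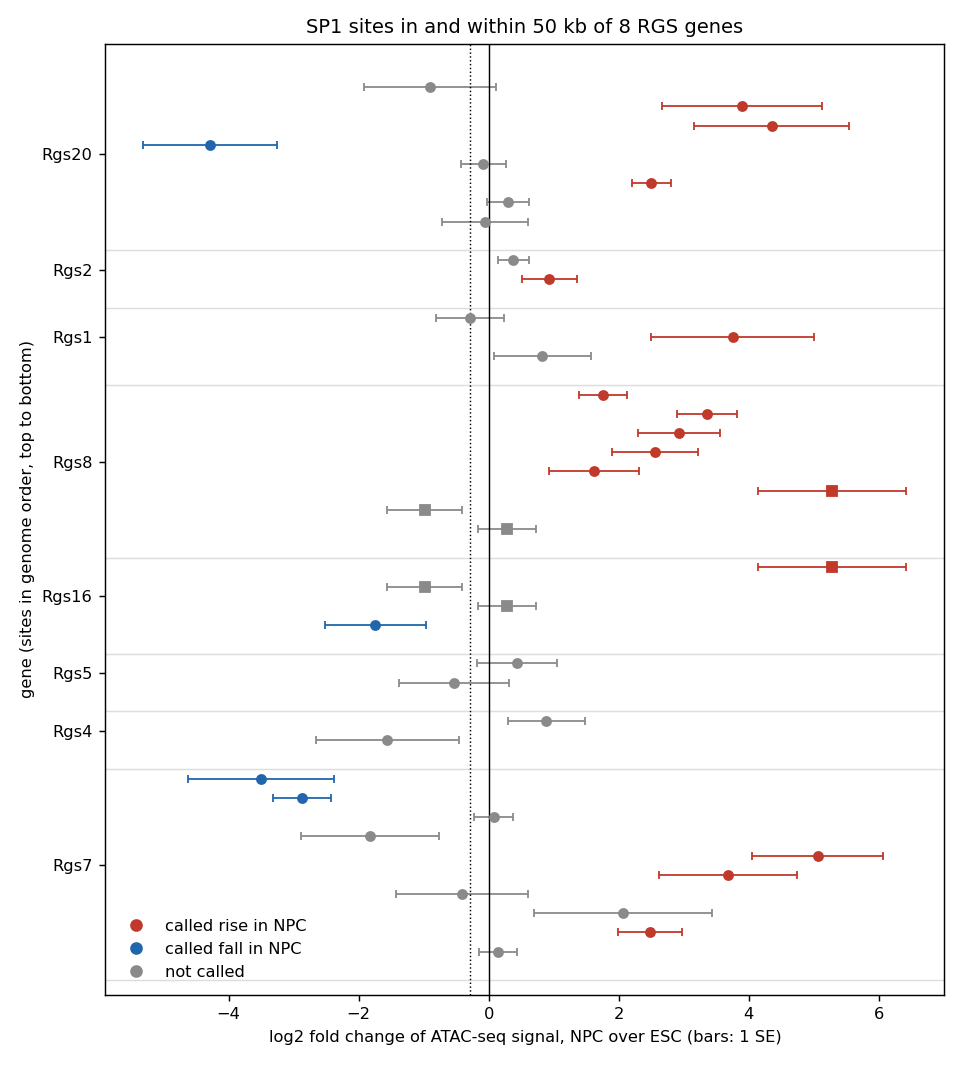
Log2 fold change of ATAC-seq signal (NPC over ESC, x axis) for every site of the 8 RGS genes with a site (y axis, genome order), with bars of 1 SE; squares are the 3 sites shared by Rgs8 and Rgs16, drawn under each gene, and the dotted line is the median of all listed sites, -0.29. The first 6 sites of Rgs8 are all called rises, and the 4 sites of Rgs4 and Rgs5 are all uncalled.

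Rgs8 and Rgs16 differed most among the neighbouring genes within 50 kb windows, though not within 100 kb, where the difference in their medians was -0.81 and that of Rgs2 minus Rgs1 was 1.84. Of the 9 sites of the group 6 rose, 1 fell and 2 were not called. Rgs8 encodes an R4 protein of the brain, and its 5 sites not shared with Rgs16 all rose, with log2 fold changes of 1.62 to 3.36 per the authors' deposited table. These include an adjacent pair and an overlapping pair, so they are fewer than 5 separate regions. Upstream of Rgs8 a pair of adjacent sites rose, at chromosome 1 from 153641472 to 153641972 (1.76 ± 0.37 (SE), adjusted p = 1.75e-05) and from 153641992 to 153642492 (3.36 ± 0.46, or 10.3-fold, adjusted p = 3.22e-11) per the authors' deposited table. They lie 11.2 kb and 10.7 kb from the gene, outside any protein-coding gene, and have the highest mean signals of the locus, 22.3 and 25.4 normalized counts.

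The next pair of rises stands at the internal starts of Rgs8, whose sequence before the start is printed above. The site from 153665051 to 153665551, with its midpoint 27 bp past the RefSeq start at 153665274, rose by 2.93 ± 0.62 on the log2 scale (adjusted p = 1.90e-05) per the authors' deposited table. The site from 153665314 to 153665814 shares 237 bp with it, so the pair are not separate measurements, and rose by 2.56 ± 0.66 per the authors' deposited table. No listed site overlaps the first RefSeq start of Rgs8, 153653037. A weaker rise, 1.62 ± 0.69 with an adjusted p of 0.0169 per the authors' deposited table, lies farther inside the gene from 153679189 to 153679689.

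Between the genes stood the largest rise of the family. The site on chromosome 1 from 153703360 to 153703860, 5.94 kb past Rgs8 and 36.7 kb before Rgs16, had a log2 fold change of 5.28 ± 1.14 (38.9-fold, adjusted p = 9.67e-06) at a mean signal of 12.0 per the authors' deposited table. The site over the Rgs16 start, from 153740096 to 153740596 with its midpoint 7 bp from the start and covering the paired GC boxes, had -0.98 ± 0.57 and was not called (adjusted p = 0.0620) per the authors' deposited table. Its 95% interval, -2.10 to 0.14, lies below that of the site at the internal Rgs8 start, 1.71 to 4.16, though the errors of sites counted in the same libraries are not independent and the difference was not tested. A site 1503 bp past Rgs16 had 0.28 ± 0.44 per the authors' deposited table.

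Over all their sites, Rgs8 had a median log2 fold change of 2.16 and Rgs16 one of -0.35, a difference of 2.51 with the 3 shared sites counted on each side. The difference was 3.09 when each site counted only for its nearest gene. With windows of 100 kb it turned to -0.81. At that width the window of Rgs16, which starts at 153740353, also takes in all the called rises of Rgs8, from 153641472 on. The contrast between the neighbours thus depends on how sites are assigned to the genes. Of 1488 protein-coding genes with at least 5 sites in such a window, Rgs8 included, 5 others had a share of rises at least as high as the 75% of Rgs8. Neighbouring genes among the 1488 share sites. The 75% counts as separate sites both the overlapping pair at the internal Rgs8 starts and the adjacent pair upstream. Since Rgs8 was chosen with these calls known, its place is a description and no measure of rarity. Nearest to Rgs8 in share of rises, share of falls and median were Kansl1l (5 of 7 sites rose, none fell, median 2.13) and Dnajb12 (5 of 7 rose, none fell, median 2.33).

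**Figure D2:**
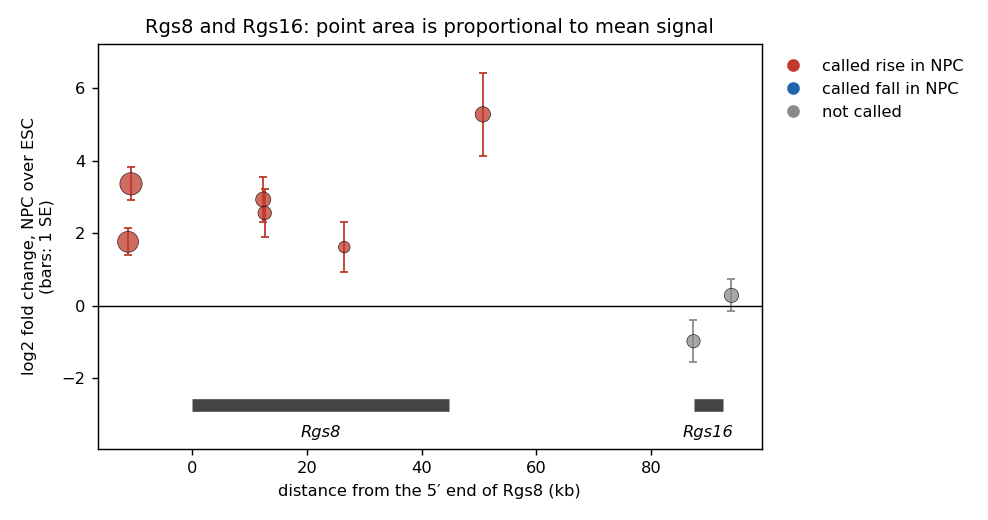
Log2 fold change (NPC over ESC, y axis, bars of 1 SE) of 8 of the 9 sites of the Rgs8/Rgs16 group against distance in kb from the 5′ end of Rgs8 (x axis), with the bodies of these genes as dark bars and point area proportional to mean signal. Sites from upstream of Rgs8 to 5.94 kb past it lie between 1.62 and 5.28, and those at and just past Rgs16 at -0.98 and 0.28. The site not drawn is the group's 1 called fall.

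Rgs4 and Rgs5, the other close pair, lie 45.7 kb apart and had no called site. Rgs5 had 0.44 ± 0.62 and -0.53 ± 0.85 at its pair of sites, both inside the gene and more than 15 kb past its start, per the authors' deposited table. The site over the start of Rgs4, from 169747399 to 169747899, had 0.89 ± 0.59 (adjusted p = 0.0981), with a 95% interval from -0.27 to 2.05, per the authors' deposited table. The other Rgs4 site, 29.2 kb upstream, had -1.56 ± 1.10 per the authors' deposited table. Mean signals in this group were 3.05 to 8.68, beside a median of 5.78 over all sites, and standard errors 0.59 to 1.10. The start of Rgs5, with no GC box in the printed bases, had no listed site within 15 kb, and the start of Rgs4, also without one, did.

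In the third group Rgs2 carried the site of highest mean signal in the family. The site over its start, on chromosome 1 from 144003989 to 144004489 and covering the 4 GC boxes, had a mean signal of 85.1 normalized counts per the authors' deposited table, and 99.4% of listed sites had that signal or less. It was not called, with 0.38 ± 0.24 (adjusted p = 0.114, 95% interval -0.08 to 0.84) per the authors' deposited table. A site 2.62 kb upstream, with a mean signal of 19.1, rose by 0.93 ± 0.42, or 1.91-fold (adjusted p = 0.0214), per the authors' deposited table, the smallest rise among the 14. Rgs2, which acts mainly on the Gq class of alpha subunits, had no site inside the gene.

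Rgs1, 241 kb from Rgs2, is a lymphocyte gene, and none of its 3 sites lay inside it. The nearest, 1.01 kb from the gene, had 0.83 ± 0.75 and was not called per the authors' deposited table. The site from 144210786 to 144211286, 33.6 kb from Rgs1, rose by 3.75 ± 1.25 (adjusted p = 0.00285) at a mean signal of 4.06 per the authors' deposited table. The third, 46.8 kb away and inside the noncoding gene Gm35415, had -0.29 ± 0.52 per the authors' deposited table and lies closer to Rgs13, another R4 gene. The site that rose is 33.7 kb from Rgs13, about as far as from Rgs1. Rgs18, 504 kb beyond Rgs1, had no site within 50 kb, and the first one outside, 61.3 kb away, fell by 3.63 ± 1.47 per the authors' deposited table. The medians of Rgs2 and Rgs1 were 0.66 and 0.83, a difference of -0.17 that changed sign in some settings.

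At Rgs7, called changes divided by position. This gene of 434 kb had a site 446 bp past its RefSeq start, from 175491849 to 175492349, with the highest mean signal of its 10 sites (25.9) and a log2 fold change of 0.15 ± 0.29 (adjusted p = 0.631) per the authors' deposited table. Inside the gene 3 sites rose. That from 175385591 to 175386091, 107 kb past the start, rose by 2.49 ± 0.49 (adjusted p = 4.37e-06) and that from 175188112 to 175188612, 304 kb past it, by 3.69 ± 1.07, per the authors' deposited table. The largest, from 175128594 to 175129094 and 364 kb past the start, rose by 5.06 ± 1.01, or 33.5-fold (adjusted p = 2.10e-06), per the authors' deposited table. The other 3 sites inside the gene had mean signals of 2.22 to 3.84 and were not called, with -0.41 ± 1.02, 2.06 ± 1.37 and -1.83 ± 1.06 per the authors' deposited table.

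Past the 3′ end of Rgs7 the direction was the opposite. Of the 3 sites there, that from 175039522 to 175040022, 19.3 kb past the gene, fell by 2.87 ± 0.45 (7.33-fold, adjusted p = 8.63e-09) per the authors' deposited table. A site 34.7 kb past the gene fell by 3.51 ± 1.12 (adjusted p = 0.00229) per the authors' deposited table. The third, from 175041407 to 175041907 and beside the stronger fall, had 0.08 ± 0.30 at a like mean signal, 22.0 against 23.3, per the authors' deposited table. Over its 10 sites Rgs7 thus had 3 rises, 2 falls and a median of 0.11. Ncstn (3 rises and 2 falls among 10 sites, median 0.08) and Mapkapk2 (3 and 2 among 10, median 0.24) were the most similar genes by the same measure.

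**Figure D3:**
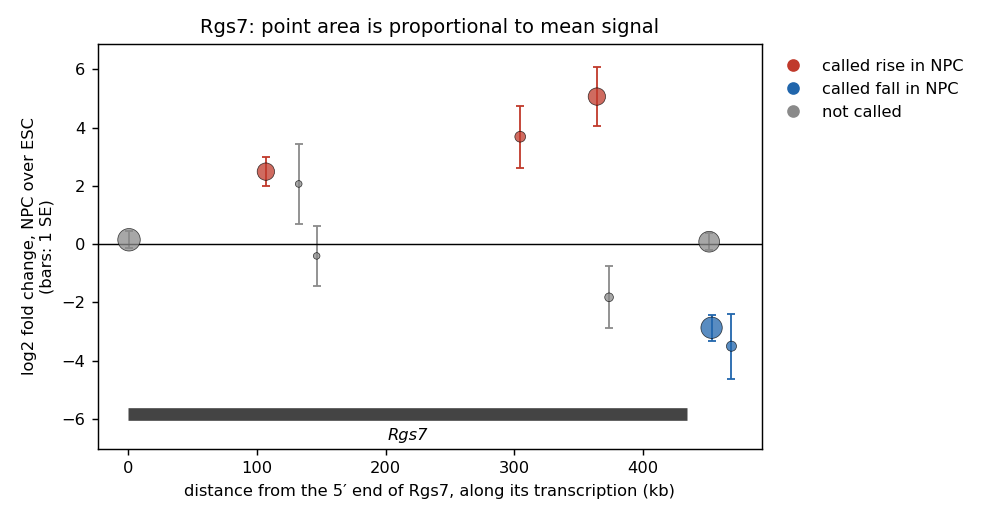
Log2 fold change (NPC over ESC, y axis, bars of 1 SE) of the 10 Rgs7 sites against distance in kb from the gene's 5′ end along its transcription (x axis), with the gene body as a dark bar and point area proportional to mean signal. The 3 rises lie inside the gene at 107 to 364 kb and the pair of falls past its 3′ end, while the large point near the start is at 0.15.

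Rgs20, whose product (also called RGSZ1) acts on the alpha subunit Gz, also held changes of opposite sign within 1 gene. Its strongest site, from 5022754 to 5023254 and inside the gene, had a mean signal of 50.3 and rose by 2.50 ± 0.30, or 5.67-fold (adjusted p = 2.05e-14), per the authors' deposited table, the smallest adjusted p of the family. The next site, from 5017825 to 5018325, had -0.08 ± 0.35 per the authors' deposited table. Nearer the lower-numbered end of the gene, sites 1.37 kb and 16.9 kb inside it rose by 3.90 ± 1.23 and 4.36 ± 1.19 at mean signals of 4.38 and 6.04 per the authors' deposited table. Between these and the strongest site, the site from 4972345 to 4972845 fell by 4.28 ± 1.03 (adjusted p = 7.90e-05) per the authors' deposited table. It lies inside the noncoding gene Gm16041 as well as inside Rgs20.

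The remaining 3 sites of the Rgs20 window lie inside its neighbours Tcea1 and Atp6v1h, and were not called, with -0.91 ± 1.01, 0.30 ± 0.33 and -0.06 ± 0.67 per the authors' deposited table. The spread between sites of 1 gene was wide. The range of log2 fold changes within a gene ran from 0.55 at Rgs2 to 8.64 at Rgs20. Pm20d1 and Tspan15 came closest to Rgs20, each with 3 rises and 1 fall among 8 sites.

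**Figure D4:**
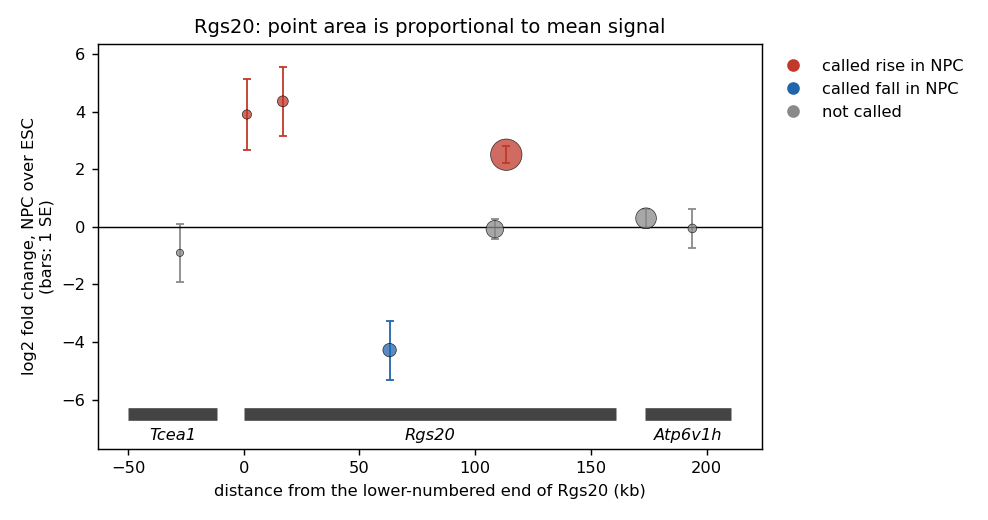
Log2 fold change (NPC over ESC, y axis, bars of 1 SE) of the 8 Rgs20 sites against distance in kb from the gene's lower-numbered end (x axis), with gene bodies as dark bars, those of the neighbours cut at 50 kb from Rgs20, and point area proportional to mean signal. The fall, at -4.28, lies between rises on either side, and the largest point is the rise of 2.50.

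What the called sites shared can be given by position and signal. Of the 17 sites inside a member gene, 9 rose and 1 fell, where 24.1% and 30.1% of the 4461 listed sites inside any protein-coding gene did. Of the 19 outside, 5 rose (26.3%) and 3 fell (15.8%), beside 21.6% and 35.0% of the 4540 listed sites outside any protein-coding gene, so the share of rises there is near the background. Of the 5 sites overlapping a RefSeq start window of their own gene, the overlapping pair at Rgs8 rose and none fell, and the sites of Rgs2, Rgs4 and Rgs16 were not called. Sites of Rgs1 and Rgs20 could not be among the 5, since no start windows of these genes were available. Among all 1146 sites on such windows 42% were called, 27.1% as rises and 14.8% as falls, with a median log2 fold change of 0.25. The listed sites on windows with a GC box rose in 27.8% and fell in 11.1% of cases (704 sites), and those on windows without one in 25.9% and 19.7% (498 sites, some of them on windows of both kinds).

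The RGS sites had a median mean signal of 8.84 normalized counts, against 5.78 for all sites. Of the 24 RGS sites at or above that overall median, 12 rose and 3 fell, and 28.9% and 30.3% of all such sites did. Of the 12 weaker ones, 2 rose and 1 fell, and 16.7% and 34.9% of all weaker sites did. The share of rises thus moved with signal among the RGS sites as it did in the whole table, and the part of signal in the family's balance was not tested.

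**Figure D5:**
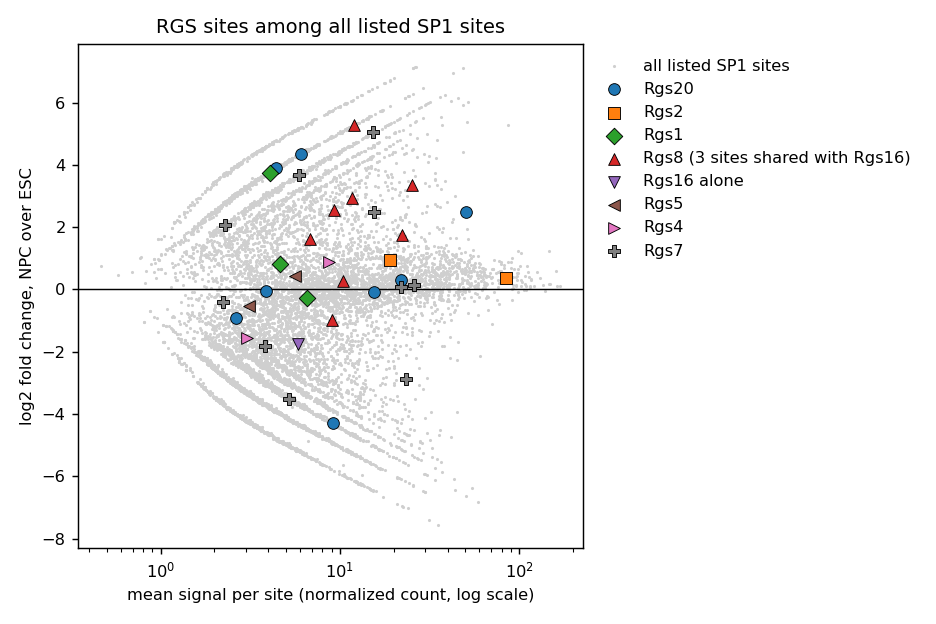
Log2 fold change (NPC over ESC, y axis) against mean signal (normalized count, log-scaled x axis) for all 9001 listed sites in grey and the 36 RGS sites as symbols by gene, the 3 sites shared by Rgs8 and Rgs16 drawn as Rgs8. The Rgs2 start site lies far right near 0 (85.1, 0.38), and several RGS rises of low signal lie near the upper edge of the grey cloud.

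The limit of 50 kb decides which sites count. Just inside it, the outermost site of Rgs8 at 49.3 kb had 0.28 ± 0.44 and that of Rgs1 at 46.8 kb had -0.29 ± 0.52 per the authors' deposited table, neither called. Just outside, a site 51.9 kb from Rgs20 had 0.64 ± 0.22 and another 51.9 kb from Rgs2 had 2.59 ± 0.74, both rises, per the authors' deposited table. Past the limit at Rgs8, 54.0 kb away, an uncalled site had -0.04 ± 0.61 per the authors' deposited table. Of all 36 sites, 4 lay inside or within 1 kb of a protein-coding gene outside the family. Of these none rose and 1 fell, too few to set against the 22.8% of rises and 32.6% of falls among all sites.

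Other RGS-domain genes were covered in part, with 3 of the 25 on the list having a site. Of their 21 sites 5 rose and 4 fell (median 0.04), and 5 of the 21 are also sites of the members above. Rgs17 on chromosome 10, the RZ relative of Rgs20, had 4 rises and 1 fall among 13 sites. A site inside it rose by 5.19 ± 1.19 and a site 31.6 kb from it fell by 3.83 ± 1.07 per the authors' deposited table. At its start, where RefSeq bases held 2 GC boxes, the nearest site lay 956 bp away. Rgs13, between Rgs2 and Rgs1, had 2 falls and 1 rise among 5 sites. The rise is the one 33.6 kb from Rgs1 and 33.7 kb from Rgs13. A site 2.38 kb from Rgs13 fell by 2.58 ± 0.83 per the authors' deposited table. Rgsl1, an RGS-like gene past Rgs16, had 3 sites, all of them sites of Rgs16.

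The G proteins on which RGS proteins act were represented by 4 of the 33 subunit genes, Gnaz, Gna11, Gna15 and Gng7, all on chromosome 10. Of their 36 sites 8 rose and 12 fell, with a median log2 fold change of -0.43. Gnaz encodes the alpha subunit that Rgs20 acts on, and 3 of its 13 sites rose and 5 fell. The leading called site of its window, at 4.44 ± 1.02 per the authors' deposited table, overlaps the start window of the neighbouring gene Rsph14. A site inside Gng7, a gamma subunit gene, fell by 5.00 ± 1.21 per the authors' deposited table, and another in its window, nearest Lmnb2, fell by 3.46 ± 0.80. A site in the windows of Gna15 and of the receptor gene S1pr4, but nearest Celf5, fell by 4.19 ± 0.64 per the authors' deposited table.

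Among effectors and partners of G proteins, 5 of 29 genes had sites (Adcy1, Adcy10, Kcnj9, Ric8b and Prex2), and 19 of 63 sites rose and 15 fell (median 0.07). Adcy1, a neuronal adenylyl cyclase gene, had 6 rises and no fall among 11 sites, led by 5.54 ± 0.74 inside the gene per the authors' deposited table. Kcnj9, a subunit gene of G protein-gated potassium channels, had 6 rises and 5 falls among 19 sites. The 2 called sites inside Kcnj9 itself both fell, with log2 fold changes of -3.33 ± 0.68 and -4.72 ± 1.17 per the authors' deposited table. Its window runs into neighbours, and the rises of 3.01 ± 0.34 and 2.47 ± 0.36 lie nearest Kcnj10 and the site at -4.01 ± 0.65 nearest Igsf8 per the authors' deposited table.

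Of 38 receptor genes on the list 25 had sites, and 36 of their 171 sites rose and 60 fell (median -0.11). All 4 sites of Cxcr4, a chemokine receptor gene, rose (median 2.88), and 7 of 10 sites of Gpr55 rose and 3 fell. At Gpr37l1, an orphan receptor gene of glia, 4 of 12 sites rose and 3 fell, led by 4.79 ± 0.75, and at Gpr52, with 4 sites all nearest Rabgap1l, 1 rose by 3.77 ± 0.55 and 1 fell by 5.27 ± 1.19, per the authors' deposited table. Ackr3, an atypical chemokine receptor gene, had 2 falls among 3 sites, led by -4.48 ± 0.63 per the authors' deposited table. At the opioid receptor gene Oprm1 5 of 8 sites fell and 2 rose. Rises were none and falls 5 of 10 at Sctr and 4 of 10 at Gpr35. Other receptor genes with sites included Adora1, Adora2a, Cxcr1, Cxcr2, Htr2b, Avpr1a, Avpr1b, Gpr161, Gpr39, Pth2r, Lgr5, Lgr6, S1pr4, Tbxa2r, Adgrg6 and Adgrb3. For each of these lists the shares stand beside 22.8% rises and 32.6% falls among all sites.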

How the data were processed

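ATAC-seq was done on 3 ESC and 3 NPC libraries, grouped by the cell type in the labels. The submitters' processing notes name mm10, BWA 2.1, Picard 2.23.8, MACS2 2.2.7, SAMtools 1.9 and DESeq2, without role or settings. How the SP1 sites were chosen is not given in the sources used here, and sites picked in only 1 of the cell types would shift how many rise or fall. Per the file headers, the deposited mean signal is the normalized count averaged over libraries. The p-values, raw and adjusted, and the log2 fold change are the authors' deposited values, and the direction was read from the table's name. The deposited standard error, recorded as a score because it has no fixed range, is that of the log2 fold change.

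Sites, 500 bp wide, were called at the authors' adjusted p below 0.05, adjusted over their whole table. No test was added. Sites were assigned by midpoint, 50 kb around RefSeq genes, using Python 3.11.15 and pandas 2.3.3, with functions checked on simulated data. Intervals of 95% came from the deposited standard errors, but the deposited p-values are not those of fold change over standard error. An interval and an adjusted p of the same site can therefore differ. With p-values recomputed that way and adjusted over the listed sites, 18.8% of all sites rose and 26.5% fell. Of the RGS sites 13 rose and 3 fell in that setting. Depth per library is unknown, which limits precision at weak sites. Coordinates stand as deposited, and whether they count from 0 or 1 is not stated. Exons, introns and UTRs were not analysed here. Fold changes may be shrunk towards 0, which would understate weak sites.

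The members and lists were chosen with earlier results of these data known. Named were every member with its called sites and nearest site, the 2 genes most like each member of at least 5 sites (distance over share of rises, share of falls and median, each divided by its SD, at least 1 Mb from any member), and the pathway genes with a site and up to 4 leading called sites per list, with some items not reported here. Alternatives changed the window, the assignment, the threshold, the p-values, centring, the signal minimum and overlapping sites. Leaving out sites at other genes was added after the data were seen.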

Additional observations from a re-analysis of the deposited data

How the results depend on the processing

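Of 174 values recomputed under alternatives, 145 kept their direction and moved by no more than 1.5 times (counts) or by less than the median standard error of the RGS sites, 0.66 (log2 values), and 4 changed sign. The 14 rises ran from 12 to 18. The 4 falls became 2 with windows of 20 kb and 12 with windows of 100 kb, where 18 sites rose. With 100 kb windows, falls were 3 at Rgs20, 3 in the Rgs1/Rgs2/Rgs18 group (with 5 rises), 3 in the Rgs8/Rgs16 group and 1 in the Rgs4/Rgs5 group. The lone fall of the Rgs8/Rgs16 group went to 0 with 20 kb windows, with the nearest gene only, at an adjusted p below 0.01, with recomputed p-values and with centring. The 2 rises of the Rgs1/Rgs2/Rgs18 group became 1 with 20 kb windows, the signal minimum, the stricter p, a log2 change above 1 and recomputed p-values. The 2 falls at Rgs7 became 1 with 20 kb windows and with the signal minimum. Rises and falls of the G protein lists, 67 and 87, were 41 and 56 with 20 kb windows and 35 and 53 with the nearest gene only. The difference between Rgs8 and Rgs16 turned to -0.81 with 100 kb windows and that between Rgs5 and Rgs4, 0.29, to -0.93 with 20 kb windows. That between Rgs2 and Rgs1, -0.17, turned to 1.84 with 100 kb windows and 0.94 with the signal minimum, and was -1.63 with the nearest gene only; the cause was not tested. With the signal minimum Rgs5 had no site left, so the Rgs5 and Rgs4 difference could not be formed. Below the median signal of all sites 51.6% of sites were called, and at or above it 59.2%. No paired analysis was possible because the table holds no value per library, and for the same reason no library was left out.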
